A study of Mus musculus with 28 samples.

Results

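Hippocampal gene expression was measured in 3xTg-AD mice, a transgenic model of Alzheimer's disease, after navitoclax (NAVI) or its vehicle (VehN). The comparison was defined by label: the 4 libraries of 3xTg mice treated with NAVI were set against the 4 libraries of 3xTg mice treated with VehN, its vehicle, over the 16369 genes that passed a filter on low counts, of 24062 in the table. These are 8 of the 28 libraries and 2 of the 7 groups. Beside them, NAVI and Veh in the genetic background labelled BL6/129 (WT, 4 libraries each) served to ask whether the genotypes differed, and VehD in 3xTg (4 libraries) as a second vehicle, while the groups given DQ entered only the estimate of the spread. All mice were female, and the labels give no age, dose, route or number of treatments. The 3xTg line carries human App and Mapt transgenes, both driven in neurons by the Thy1 promoter, and the VehN mice carry them too. WT mice had 1 vehicle group for both drugs, so the WT vehicle is not labelled as that of navitoclax.

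Navitoclax, also called ABT263, is a small molecule that mimics the BH3 helix of pro-apoptotic proteins. It occupies the groove of BCL-2, BCL-XL and BCL-W but binds MCL-1 poorly, which frees BH3-only proteins and lets the effectors BAX and BAK permeabilise the mitochondrial outer membrane. Cells primed for death, among them many senescent cells and platelets, depend on these survival proteins, and navitoclax is used as a senolytic for that reason. In whole hippocampus, fewer cells of a type and less RNA per cell cannot be told apart.

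The genes used to mark the contrast were Tyro3, a receptor tyrosine kinase that binds Gas6 and protein S and is abundant in neurons, Fscn1, which encodes the actin-bundling protein fascin, Bbc3, which encodes the BH3-only protein PUMA, and Junb, an AP-1 transcription factor and immediate early gene. All 4 lay higher in NAVI than in VehN libraries, and all 4 have GC-rich transcripts (55.4, 60.6, 65.2 and 62.6% GC over the longest annotated transcript, against a median of 49.7% over all genes tested). Their promoter windows are printed because the same composition is visible there: RefSeq (GRCm38.p6) windows from 250 bases before to 50 bases after a start site, 5′ to 3′ on the gene's strand, with capitals marking the GC box GGGCGG, the cyclic AMP response element TGACGTCA or its shorter form TGACG, and the TATA box TATAAA, each on either strand. The windows are at chr2:119799264-119799563 (+) for Tyro3, chr5:142960105-142960404 (+) for Fscn1, chr7:16309333-16309632 (+) for Bbc3, the first of its 3 windows, and chr8:84978699-84978998 (−) for Junb. The genes themselves, all protein-coding, span chr2:119797740-119818104, chr5:142960355-142973189, chr7:16308398-16318334 and chr8:84976909-84978748 on GRCm38.
Tyro3: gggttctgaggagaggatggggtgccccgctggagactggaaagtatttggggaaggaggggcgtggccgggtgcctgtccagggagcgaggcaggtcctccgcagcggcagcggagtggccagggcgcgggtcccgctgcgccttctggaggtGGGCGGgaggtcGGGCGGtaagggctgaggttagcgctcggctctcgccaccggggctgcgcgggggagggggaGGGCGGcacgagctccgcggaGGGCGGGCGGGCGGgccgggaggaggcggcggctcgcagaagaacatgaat
Fscn1: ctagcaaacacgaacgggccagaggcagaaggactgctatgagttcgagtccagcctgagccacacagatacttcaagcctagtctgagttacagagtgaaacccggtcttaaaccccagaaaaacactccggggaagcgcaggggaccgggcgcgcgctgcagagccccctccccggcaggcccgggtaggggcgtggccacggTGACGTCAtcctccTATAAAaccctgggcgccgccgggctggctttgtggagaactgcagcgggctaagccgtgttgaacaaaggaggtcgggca
Bbc3: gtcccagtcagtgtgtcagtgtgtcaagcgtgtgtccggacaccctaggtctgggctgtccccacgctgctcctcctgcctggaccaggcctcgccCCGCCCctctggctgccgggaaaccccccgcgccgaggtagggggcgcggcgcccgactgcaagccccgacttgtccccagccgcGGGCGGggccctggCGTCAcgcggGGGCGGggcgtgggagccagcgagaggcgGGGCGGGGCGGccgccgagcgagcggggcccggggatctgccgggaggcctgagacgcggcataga
Junb: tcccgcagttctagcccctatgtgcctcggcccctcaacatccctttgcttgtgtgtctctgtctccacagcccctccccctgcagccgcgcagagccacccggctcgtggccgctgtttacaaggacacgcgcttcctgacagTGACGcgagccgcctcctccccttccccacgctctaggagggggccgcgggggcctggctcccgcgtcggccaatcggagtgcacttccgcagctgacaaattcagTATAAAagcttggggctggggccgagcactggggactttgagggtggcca

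The 4 windows are 73.3% (Tyro3), 61.7% (Fscn1), 76.0% (Bbc3) and 65.3% (Junb) GC, against a median of 52.7% over 32851 RefSeq windows. The Tyro3 window holds 6 GC boxes and the Bbc3 window 5, a motif present in 35.7% of all windows. Fscn1 has a full cyclic AMP response element, found in 1.79% of windows, a short distance before a TATA box. TATA boxes occur in 13.6% of windows and the short element TGACG, which is contained in the full one on both strands and is also present in the Bbc3 and Junb windows, in 20.8%. A match describes these letters and is not a binding site.

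Tyro3 stood at 101, 118, 149 and 116 CPM (counts scaled to the normalized library size) in NAVI replicates 1 to 4, against 86.6, 79.3, 77 and 92.3 CPM in VehN replicates 1 to 4. Fscn1 had 61.3, 61.2, 78.3 and 79.7 CPM in NAVI libraries, against 57.8, 43.4, 41.9 and 48.5 CPM in VehN libraries. The groups did not overlap for either gene. Bbc3, at a low level, had 1.76, 1.27, 2.51 and 2.03 CPM in NAVI libraries and 1.19, 0.84, 0.727 and 1.18 CPM in VehN libraries. Junb had 13.1, 7.11, 16.8 and 13.3 CPM in NAVI libraries and 6.56, 3.86, 3.86 and 5.48 CPM in VehN libraries. Neither of these overlapped, although the lowest NAVI library of each, replicate 2, was close to the highest VehN library, replicate 1. The log2 fold changes of NAVI over VehN were 0.53 ± 0.10 for Tyro3, 0.55 ± 0.11 for Fscn1, 0.94 ± 0.27 for Bbc3 and 1.35 ± 0.31 for Junb (SE, n = 4 libraries each). In edgeR's quasi-likelihood test, Tyro3, Fscn1 and Junb had an adjusted p of 0.0595 and Bbc3 of 0.0604, so none passed 0.05 after Benjamini-Hochberg adjustment.

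**Figure D1:**
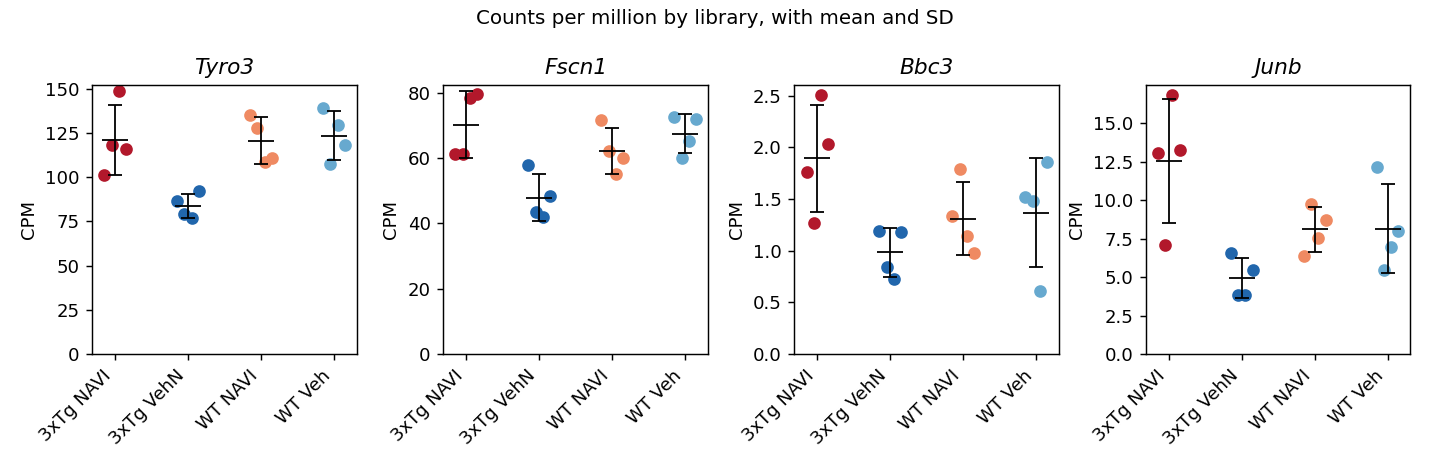
CPM of the 4 marker genes in each library of 3xTg NAVI, 3xTg VehN, WT NAVI and WT Veh; points are libraries and bars the mean and SD of 4. In 3xTg every NAVI library lies above every VehN library for all 4 genes, which were named as markers of that contrast, whereas the WT groups overlap.

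In WT the 4 genes showed no such separation. Tyro3 had 135, 128, 108 and 111 CPM in WT NAVI libraries and 139, 108, 129 and 118 CPM in WT Veh libraries. Junb had 6.37, 9.76, 7.55 and 8.73 CPM in WT NAVI libraries and 12.2, 5.43, 6.95 and 7.96 CPM in WT Veh libraries. The lowest group of the 4 was 3xTg VehN for all 4 markers, as the group means in the plot of marker counts show. The NAVI effect in 3xTg minus that in WT was 0.56 on the log2 scale for Tyro3 (edgeR adjusted p = 0.0427), 0.67 for Fscn1 (adjusted p = 0.0427), 1.35 for Junb (adjusted p = 0.0502) and 0.99 for Bbc3 (adjusted p = 0.0811). Tyro3 and Fscn1 therefore passed the test of the difference, and Junb and Bbc3 did not. The 4 genes were named beforehand as markers of the 3xTg contrast. Their separation in 3xTg, and its absence in WT, are thus no independent evidence of an effect or of a genotype difference. The same holds where a marker is counted in a gene group below, such as Tyro3 among the TAM genes and Bbc3 among the BH3-only genes. Over all genes, 2.83% lay higher without overlap in 3xTg.

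Across all genes no gene passed the main test of NAVI against VehN in 3xTg (edgeR, 0 of 16369 at adjusted p under 0.05, 0%). The smallest adjusted p was 0.0595, shared by 456 genes, and 4759 genes had an unadjusted p under 0.05, of which 2691 lay higher (16.4%) and 2068 lower (12.6%) in NAVI. DESeq2 called 1490 genes higher (9.1%) and 510 lower (3.12%), and limma-voom with library quality weights called 606 higher and 220 lower, of which 778 in either direction were also called by DESeq2. The NAVI and VehN libraries did not overlap for 464 genes that were higher (2.83%) and 425 that were lower (2.6%). The count of calls thus depended on the tool and on single libraries: edgeR called 760, 2790, 3578 and 231 genes without NAVI replicate 1, NAVI replicate 2, VehN replicate 1 and VehN replicate 4, and 0 without NAVI replicate 3 or 4 or VehN replicate 2 or 3. Since no gene passed, members of gene groups were counted as higher or lower at an unadjusted edgeR p under 0.05, to be read against the 16.4% and 12.6% of all genes.

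The fold changes followed the base composition of the transcripts. In the decile of genes with the lowest GC content (31.0 to 41.5%) the median log2 fold change of NAVI over VehN was -0.21, with 9 genes higher and 571 lower at p under 0.05, and in the decile with the highest (57.8 to 72.5%) it was 0.35, with 863 higher and 5 lower. The slope of log2 CPM on transcript GC, per 10 percentage points, was 0.0706, -0.0506, 0.258 and 0.281 in NAVI replicates 1 to 4, against 0.109, -0.159, -0.339 and -0.108 in VehN replicates 1 to 4. NAVI replicates 3 and 4 had the steepest positive slopes and VehN replicate 3 the steepest negative one, and the groups overlapped. The mean slope was 0.140 ± 0.158 in NAVI and -0.124 ± 0.185 in VehN (SD, n = 4 each), a difference of 0.264 with a two-sided exact permutation p of 0.0857, where 0.0286 is the smallest this design allows. The same trend ran the other way in WT, where the median was 0.11 in the lowest decile and -0.19 in the highest. With a smooth GC trend taken out of each library, the medians of the deciles lay between 0.01 and 0.03 in 3xTg, 1732 genes lay higher (10.6%) and 789 lower (4.82%) at p under 0.05, and edgeR called 1 gene. That gene, 9230114K14Rik, lay higher by 0.52 on the log2 scale (edgeR adjusted p = 0.0454). Where the trend came from was not tested. For most genes named hereafter the GC-corrected log2 fold change stands beside the uncorrected one.

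**Figure D2:**
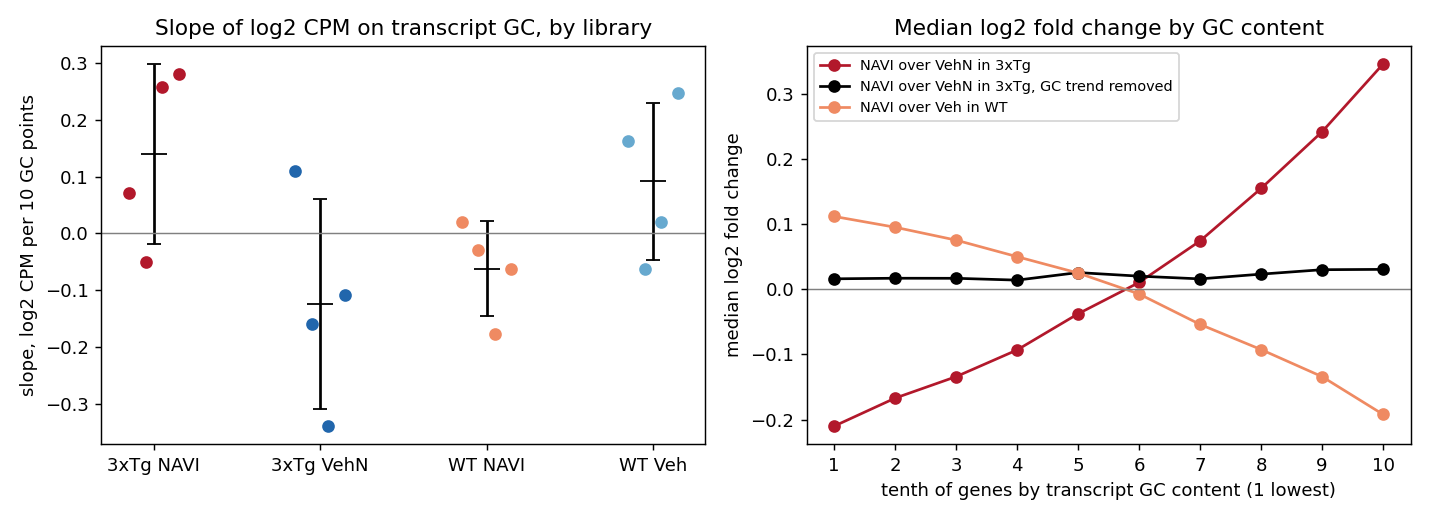
Left, the slope of log2 CPM on transcript GC content (log2 CPM per 10 GC points) for each library with the mean and SD of 4; right, the median log2 fold change in each decile of genes by GC content. The medians climb from -0.21 to 0.35 for NAVI over VehN in 3xTg, run the other way in WT and stay near 0 once the trend is removed.

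With the trend removed, the log2 fold change of Junb was 0.95, that of Tyro3 0.36, that of Bbc3 0.48 and that of Fscn1 0.20, and the adjusted p-values of edgeR were 0.11 (Junb), 0.11 (Tyro3), 0.339 (Bbc3) and 0.11 (Fscn1). Over all alternatives run, the log2 fold change of Tyro3 lay between 0.24 and 0.61, that of Fscn1 between 0.20 and 0.67, that of Bbc3 between 0.48 and 1.13 and that of Junb between 0.93 and 1.61. None of the 4 changed direction.

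The counts for gene groups are also given in other fits where these move them, each to be read against its own share of all genes. Without NAVI replicates 3 and 4 and VehN replicate 3, the libraries of steepest GC slope, a choice made after seeing the data that leaves 2 NAVI and 3 VehN libraries, 1.33% of 16638 genes lay higher and 0.871% lower at p under 0.05. Without NAVI replicates 2 and 4, the libraries low in choroid plexus genes, also chosen after seeing the data, 13.7% lay higher and 9.51% lower. With VehD in place of VehN as the vehicle 12.6% lay higher and 11.1% lower. Leaving out 1 library gave between 10.6% and 21.6% higher and between 5.35% and 16.4% lower.

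The genes of the family that navitoclax targets differed little between the groups. Of the 7 anti-apoptotic BCL-2 family genes tested, Bcl2 and Mcl1 lay lower at p under 0.05 (12.6% of all genes did) and none lay higher (16.4% did), and the median of the 7 log2 fold changes was -0.09, against -0.01 over all genes. With the GC trend removed none of the 7 reached that p in either direction, nor without NAVI replicate 1, 3 or 4 or VehN replicate 2 or 3. Bcl2, the founding survival gene and a target of the drug, had 25.7, 28.3, 25.5 and 21.4 CPM in NAVI libraries and 27.1, 31.4, 32.7 and 25.6 CPM in VehN libraries, with a log2 fold change of -0.21 ± 0.10 and -0.09 with the GC trend removed. Bcl2l1, which encodes BCL-XL, had 98.2, 92.6, 107 and 109 CPM in NAVI libraries and 112, 95.3, 75.2 and 90.9 CPM in VehN libraries. The groups overlapped for both genes. Bcl2l2, which encodes BCL-W, differed by 0.06 ± 0.04, and Mcl1, the survival protein that navitoclax binds poorly, by -0.19 ± 0.09 (-0.12 with the trend removed). Bcl2a1a, Bcl2a1b and Bcl2a1d, near-identical copies of the A1 gene between which reads may be split, differed by -0.09, 0.14 and -0.39 with SEs of 0.44, 0.29 and 0.48 and are uncertain. Bcl2l10 fell below the count filter.

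Among the BH3-only genes, which encode the proteins that navitoclax mimics, 7 were tested, 2 lay higher and 1 lower. Bbc3, whose values are given with the markers, had the larger fold of the higher pair. As a marker named beforehand, Bbc3 is no independent evidence there. Bad, whose product binds the drug's own targets BCL-2, BCL-XL and BCL-W, had 11.4, 10.9, 12.8 and 14.1 CPM in NAVI libraries and 12.6, 8.8, 6.29 and 9.54 CPM in VehN libraries, with overlap at VehN replicate 1 (log2 0.40 ± 0.17, 0.19 with the trend removed). Pmaip1, which encodes NOXA, the antagonist of MCL-1 and A1, ran the other way, at 2.43, 2.78, 2.57 and 1.96 CPM in NAVI libraries and 3.69, 5.85, 3.14 and 2.64 CPM in VehN libraries. Its log2 fold change was -0.65 ± 0.25 (edgeR adjusted p = 0.0946), with 1 NAVI library inside the VehN range. Bbc3 and Pmaip1, both targets of p53, lay on opposite sides of 0. Bcl2l11, which encodes BIM, had 7.16, 6.98, 7.19 and 6.34 CPM in NAVI libraries, each below the VehN values of 7.23, 8.21, 7.29 and 7.62 CPM, but the gap was small (log2 -0.13 ± 0.11, edgeR adjusted p = 0.416). Bid, Bmf and Hrk differed by -0.01, -0.11 and -0.08, all less than their SE, and Bik fell below the filter.

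Of the 3 effectors, Bax lay higher, at 18.7, 17, 23.5 and 25.4 CPM in NAVI libraries, against 18.1, 13.7, 12.2 and 16.4 CPM in VehN libraries, where NAVI replicate 2 fell inside the VehN range. Its log2 fold change of 0.48 ± 0.14 came to 0.07 with the GC trend removed, and its transcript is 63.5% GC. The NAVI effect on Bax differed between genotypes before that correction (0.71 on the log2 scale, adjusted p = 0.0431) and did not pass the test after it (adjusted p = 0.772, edgeR). Bak1 differed by 0.17 ± 0.13 and Bok, a BAX-like protein abundant in brain, by 0.07 ± 0.17, and both were negative with the trend removed (-0.04 and -0.26), where Bok was the effector at p under 0.05. Downstream, 2 of 14 genes of the apoptosome and caspases lay higher and 2 lower. Htra2, a mitochondrial protease released when the outer membrane opens, had 13.2, 11.7, 15.6 and 17.7 CPM in NAVI libraries and 12.6, 10.8, 9.79 and 11.2 CPM in VehN libraries, a log2 fold change of 0.38 that came to 0.04 with the trend removed.

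**Figure D3:**
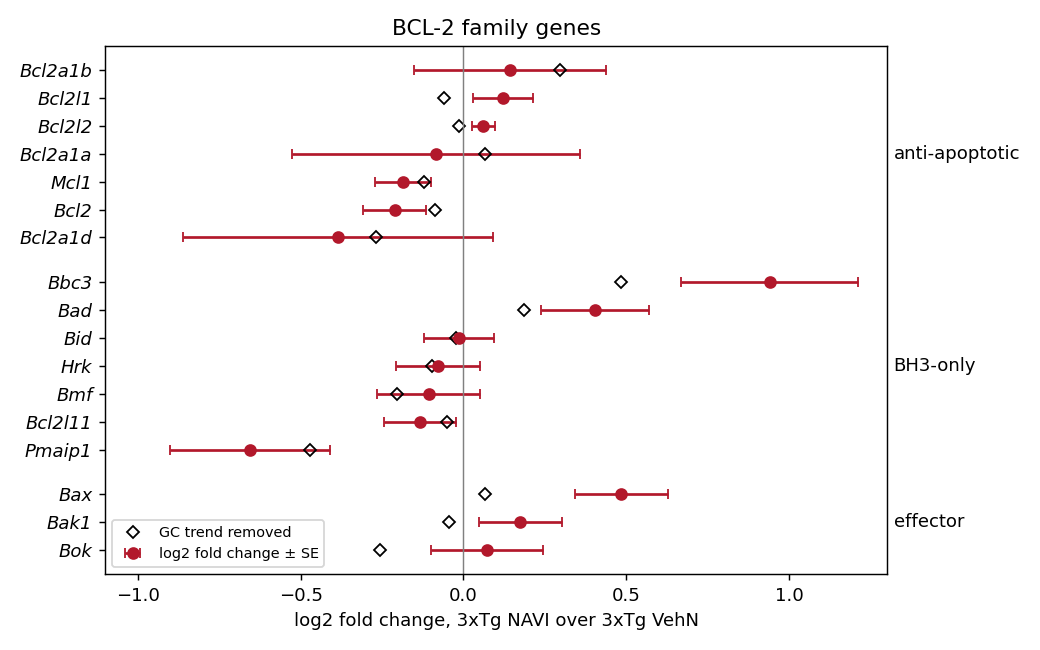
Log2 fold change of 3xTg NAVI over 3xTg VehN with its SE for the 17 tested BCL-2 family genes, grouped by role (filled), and the value with the GC trend removed (open). Bbc3 lies farthest to the right at 0.94 and Pmaip1 farthest to the left at -0.65, and the open symbols of the GC-rich Bax and Bbc3 lie nearer 0 than the filled ones.

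Senolytic action is usually read from cell cycle inhibitors and secretory factors. Cdkn2a, which encodes p16 and ARF, was below the count filter, with 1, 1, 5 and 4 counts in NAVI libraries and 5, 2, 0 and 1 counts in VehN libraries. Its level was 0.0739 ± 0.0627 CPM in NAVI and 0.046 ± 0.0494 CPM in VehN (SD, n = 4 each), a difference not detectable at this depth (two-sided exact permutation p = 0.486). Cdkn1a, which encodes p21, had 8.74, 14.2, 11.3 and 10.7 CPM in NAVI libraries and 12.9, 19.6, 9.98 and 9.76 CPM in VehN libraries, which overlapped (log2 -0.21 ± 0.22, edgeR adjusted p = 0.521). Of 16 regulators of senescence tested, 3 lay higher and 1 lower at p under 0.05. The higher count was near the 16.4% of all genes and the lower count below the 12.6%. Cdkn2d, the cyclin-dependent kinase inhibitor p19, had 32.3, 34.5, 40.6 and 42.1 CPM in NAVI libraries and 29, 28.2, 28.6 and 32.9 CPM in VehN libraries. E2f1, a transcription factor of S phase entry, had 8.72, 9.41, 13.4 and 9.61 CPM in NAVI libraries and 7.16, 7.15, 5.99 and 7.09 CPM in VehN libraries, without overlap. The log2 fold change of Cdkn2d was 0.14 with the GC trend removed. Without the 3 libraries of steepest GC slope it was 0.16 for Cdkn2d and 0.36 for E2f1. The other regulators at that p were Trp53, higher, and Rbl2, lower. Of 32 tested genes of the senescent secretory list, 3 lay higher (Ccl4, Csf1 and Igfbp6) and none lower, below the 16.4% and 12.6% of all genes, and leaving out 1 library gave 0 to 6 higher and 0 or 1 lower.

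Of 24 p53 targets tested, 9 lay lower and 1, Plk3, higher at p under 0.05, while over all 24 the log2 fold change was negative for 13 and positive for 11, with a median of -0.10. Bbc3 and Bax, both higher at that p, are counted in the BCL-2 family lists and not among these 24. The BH3-only list also holds Pmaip1, which lay lower. The split between lower and higher thus depends on the genes listed. Tnfrsf10b, a death receptor, had 0.818, 0.625, 0.673 and 0.644 CPM in NAVI libraries, all below the VehN values of 1.24, 1.88, 1.01 and 0.961 CPM. The log2 fold change of Tnfrsf10b was -0.88 ± 0.26 and -0.82 with the trend removed. Trp53inp1, a stress-induced cofactor of p53, differed by -0.45 ± 0.14 and Ccng1, a cyclin induced by p53, by -0.25 ± 0.08, and these came to -0.22 and -0.04 with the trend removed. Both transcripts are AT-rich (38.8 and 40.8% GC). After the correction 6 of the 24 lay lower and 1 higher, and 5 lay lower without NAVI replicate 4 or VehN replicate 2. With VehD as the vehicle 4 lay higher and 3 lower and the median was 0.03, so the direction of the list depended on the vehicle group. Without the 3 libraries of steepest GC slope 2 lay lower and 1 higher, with a median of -0.02.

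Ranked by fold change, the genes highest in NAVI were C1qtnf4, Junb, Thbs4, Fbll1, H1fx, Pcsk1n, Cplx3, Rprml, Gtpbp6 and Ttc9b. C1qtnf4, a secreted C1q-like protein of the brain, had 3.25, 2.37, 5.44 and 7.25 CPM in NAVI libraries and 2.87, 1.5, 1.03 and 1.49 CPM in VehN libraries (log2 1.41 ± 0.38, 0.81 with the trend removed). Thbs4, an astrocyte-derived thrombospondin that promotes synapse formation, had 10.4, 13.5, 21.9 and 7.8 CPM in NAVI libraries and 5.76, 8.4, 4.86 and 5.0 CPM in VehN libraries. Its transcript is 53.9% GC and its log2 fold change of 1.16 remained 1.04 after the correction. Cplx3, a complexin of ribbon synapses and cortical subplate neurons, had 10.5, 12.3, 14.8 and 4.41 CPM in NAVI libraries and 4.04, 6.17, 6.25 and 5.14 CPM in VehN libraries, with NAVI replicate 4 inside the VehN range. Fbll1, a fibrillarin-like methyltransferase, the linker histone gene H1fx, Pcsk1n, the inhibitor of the prohormone convertase PC1, Rprml, Gtpbp6, a GTP-binding protein, and Ttc9b differed by between 0.90 (Ttc9b) and 1.0 (Fbll1), and by between 0.40 (H1fx) and 0.73 (Pcsk1n) with the trend removed. The transcripts of these 6 are between 57.3% (Pcsk1n) and 71.3% GC (H1fx).

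The 10 lowest were Trim30a, Vipr2, Cldn1, Slc17a6, Sptssb, Rnf152, Tspan11, Bmx, Aox3 and Mrc1. Trim30a, an interferon-induced regulator of NF-kappaB and inflammasome signalling in mouse, had 4.27, 6.96, 5.08 and 4.96 CPM in NAVI libraries and 18.7, 7.81, 7.13 and 38.1 CPM in VehN libraries. The NAVI libraries were tightly grouped and all lower, and the log2 fold change of -1.75 ± 0.69 rested mainly on VehN replicates 1 and 4. Slc17a6, the vesicular glutamate transporter of thalamus and other subcortical regions, had 77.8, 21.2, 21.9 and 17.6 CPM in NAVI libraries and 113, 117, 51.2 and 34.2 CPM in VehN libraries. Vipr2, a receptor for the neuropeptides VIP and PACAP, had 6.49, 1.4, 1.16 and 1.07 CPM in NAVI libraries and 15.9, 12.4, 1.43 and 0.913 CPM in VehN libraries. For both, NAVI replicate 1 was the highest NAVI library and VehN replicates 1 and 2 the highest VehN libraries, and the same 3 libraries were the highest in the thalamus and habenula list (summed level 1456, 899, 949.9 and 1039 CPM in NAVI, against 2068, 1564, 851 and 903 CPM in VehN). Cldn1, a tight junction gene of meninges and choroid plexus, had 9.1, 3.14, 8.9 and 2.39 CPM in NAVI libraries and 17.6, 18.9, 11.6 and 9.33 CPM in VehN libraries. Mrc1, the mannose receptor of border-associated macrophages, had 11.1, 9.43, 3.06 and 3.12 CPM in NAVI libraries and 9.2, 18.4, 10.8 and 13 CPM in VehN libraries, low in NAVI replicates 3 and 4. The meninges list was low in the same 2 libraries, with summed levels of 1097, 1402, 502 and 318 CPM in NAVI, against 1304, 1756, 937 and 1381 CPM in VehN. Choroid plexus genes were low in NAVI replicates 2 and 4 (5382, 498, 5563 and 466 CPM in NAVI, against 8961, 6688, 4530 and 3780 CPM in VehN). All 15 choroid plexus and all 15 meninges genes tested were lower in NAVI, with median log2 fold changes of -1.07 and -0.69, of which 0 and 2 (Ogn and Lum) reached p under 0.05. Their part in the low genes was not tested. Without NAVI replicates 2 and 4 the choroid plexus median was -0.25 and the meninges median -0.67, and the meninges median was -0.43 without NAVI replicate 4 and -1.06 without NAVI replicate 2. With VehD as the vehicle the choroid plexus median was -0.26 and the meninges median 0.28, with 1 meninges gene higher and none lower, so the meninges list was on the low side against VehN and not against VehD.

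By p-value the leading genes differed by smaller folds. On the high side these were Tyro3, Fscn1, Rasal1, Prmt2, Pianp and Xylt1, and on the low side Etfa, Akap17b, Wwp1, Six4, Parva and Ahcyl2. Rasal1, a Ras GTPase-activating protein, differed by 0.69 ± 0.14 (0.31 with the trend removed), and Pianp, a neuronal ligand of the receptor PILRalpha, by 0.37 ± 0.08 (0.09). Xylt1, the xylosyltransferase that starts proteoglycan chains, had 24.4, 22.1, 29.8 and 28.9 CPM in NAVI libraries, all above the VehN values of 19.5, 17.4, 17.3 and 19.8 CPM. Its transcript has 50.7% GC, near the median, and its log2 fold change was 0.50 ± 0.10 and 0.51 after the correction. Etfa, the alpha subunit of the electron transfer flavoprotein of fatty acid oxidation, had 41.9, 41.7, 40.9 and 36.4 CPM in NAVI libraries, all below the VehN values of 50.0, 54.5, 54.4 and 47.3 CPM. Parva, which encodes the focal adhesion protein alpha-parvin, had 109, 110.5, 104 and 103 CPM in NAVI libraries and 133, 136, 131 and 115 CPM in VehN libraries. Ahcyl2, a regulator of inositol trisphosphate receptors and bicarbonate transport, had 350.2, 309.9, 289.6 and 290.4 CPM in NAVI libraries and 415, 427, 398 and 372 CPM in VehN libraries. In each of these 3 the groups did not overlap, with log2 fold changes of -0.36 (Etfa), -0.27 (Parva) and -0.38 (Ahcyl2) that came to -0.21, -0.16 and -0.29 with the trend removed. Prmt2, an arginine methyltransferase, Akap17b, the ubiquitin ligase gene Wwp1 and the homeobox gene Six4 also did not overlap, at log2 fold changes of 0.39 (Prmt2), -0.37 (Akap17b), -0.36 (Wwp1) and -0.64 (Six4).

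Neuronal activity and synapse genes lay on the high side. Of 34 immediate early genes, which neurons switch on within minutes of firing, 11 lay higher and none lower (median log2 fold change 0.24). Arc, whose product removes AMPA receptors from synapses, had 115, 99, 114 and 83.4 CPM in NAVI libraries, all above the VehN values of 48.4, 55.4, 61.8 and 77.5 CPM. In WT, Arc had 116, 148, 146 and 116 CPM in NAVI libraries and 127, 49.7, 61.5 and 72.7 CPM in Veh libraries, and its log2 fold change was 0.76 in 3xTg and 0.76 in WT. The median of the list was likewise 0.27 in WT, and the difference between genotypes was called for 0 of the 34. Nptx2, a pentraxin that clusters AMPA receptors, had 15, 19.8, 18.6 and 19.5 CPM in NAVI libraries and 15.6, 12.1, 14.3 and 12.4 CPM in VehN libraries, a log2 fold change of 0.42 (0.15 with the trend removed). After the correction 5 of the 34 lay higher and 1 lower, and without the 3 libraries of steepest GC slope 9 lay higher and none lower (median 0.27), where 1.33% of all genes lay higher. The count was 5 without NAVI replicate 3, where 11.7% of all genes lay higher. It was 7 without VehN replicate 1 or 2, where 21.6% and 12% of all genes lay higher. Without VehN replicate 1 or NAVI replicate 3 the count was thus near the share of all genes. So was the count with the trend removed, where 10.6% of all genes lay higher. The medians lay between 0.23 and 0.32 over the 8 libraries left out in turn. Against VehD 7 lay higher and 2 lower (median 0.22).

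Of 17 excitatory neuron genes 9 lay higher and none lower (median 0.32), of 28 presynaptic release genes 12 and none (median 0.09), and of 31 postsynaptic density genes 17 and none (median 0.23). The summed level of the excitatory neuron list was 7177, 7058, 8012 and 9133 CPM in NAVI libraries, against 6462, 6169, 6285 and 7274 CPM in VehN libraries, highest in NAVI replicate 4. Kcnj4, an inward rectifier potassium channel, had 37.4, 32.5, 50.9 and 45.3 CPM in NAVI libraries and 29.1, 22.9, 19.5 and 29.4 CPM in VehN libraries, and Stx1a, the syntaxin of the release machinery, 72.4, 78.2, 120.2 and 104 CPM in NAVI libraries and 54.4, 46.9, 52.1 and 60.6 CPM in VehN libraries. Neither overlapped, and the log2 fold changes of 0.72 (Kcnj4) and 0.81 (Stx1a) came to 0.40 and 0.52 with the trend removed. Slc17a7, the vesicular glutamate transporter of hippocampal principal cells, differed by 0.34 ± 0.09, and Emx1, a transcription factor of those cells, by 0.70 ± 0.19. These came to 0.12 (Slc17a7) and 0.19 (Emx1). Dlg4, which encodes the scaffold PSD-95, had 472, 469, 550.4 and 641 CPM in NAVI libraries and 442, 373, 353 and 423 CPM in VehN libraries, without overlap (log2 0.42, 0.54 with the trend removed). Unc13a, a vesicle priming factor, differed by 0.28 ± 0.07 (0.12 with the trend removed). With the trend removed 4 excitatory neuron genes lay higher and 1 lower, 9 presynaptic higher and 1 lower, and 11 postsynaptic higher and none lower. Without the 3 libraries of steepest slope these counts were 1, 2 and 4 higher and none lower, with medians of 0.12, 0.06 and 0.09, in a fit where 1.33% of all genes lay higher. Against VehD 6 presynaptic genes lay higher and none lower, and the median of that list was 0.03.

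**Figure D4:**
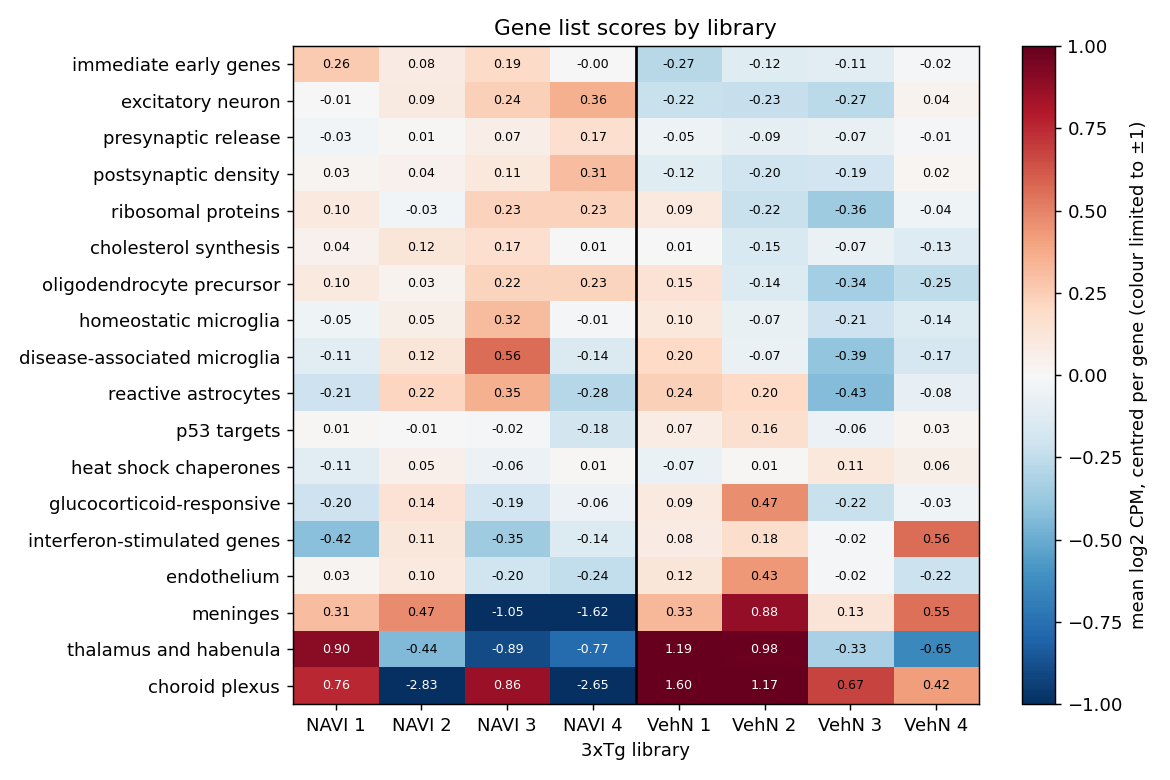
Score of 18 gene lists in each NAVI (left) and VehN (right) library of 3xTg mice: the mean over the list of log2 CPM centred per gene, with colour limited to ±1. The synaptic and ribosomal rows are highest in NAVI replicates 3 and 4, the microglial rows are highest in NAVI replicate 3, and the choroid plexus row is lowest in NAVI replicates 2 and 4.

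Cytosolic ribosomal protein genes were the list with the most members on the high side. Of 49, 31 lay higher and 2 lower (Rpl5 and Rps24), with a median log2 fold change of 0.28, against -0.16 in WT, and 30 and 3 did so with the GC trend removed (median 0.19). The difference between genotypes was called higher in 3xTg for 21 of the 49, against 5.89% of all genes, and lower for none. Rplp1, an acidic stalk protein, had 101, 77.8, 133 and 142 CPM in NAVI libraries and 94.4, 61.6, 51 and 70.2 CPM in VehN libraries, and Rpl37 111, 99.3, 122 and 127 CPM in NAVI libraries and 102, 84, 77.6 and 91.3 CPM in VehN libraries. In both, VehN replicate 1 lay inside the NAVI range. Ribosomal protein genes have many processed pseudogenes, so their counts may be split, and without the 3 libraries of steepest slope none of the 49 lay higher or lower, as against 1.33% and 0.871% of all genes, and the median was 0.08. Of 47 nuclear genes of the respiratory chain 16 lay higher and 10 lower, with a median of -0.01, and these were 8 and 4 without VehN replicate 3, 9 and 5 without NAVI replicate 4 and 17 and 6 without VehN replicate 4. A pair of complex III subunits lay on opposite sides: Uqcrq differed by 0.42 ± 0.13 and Uqcrh by -0.27 ± 0.08, and 0.45 and -0.16 with the trend removed.

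Interferon-stimulated genes lay on the low side. Of 38 tested, 11 lay lower and none higher, and 33 had a negative log2 fold change (median -0.40, against -0.14 in WT). The summed level was 289, 375, 306 and 339 CPM in NAVI libraries, against 383, 385, 368 and 519 CPM in VehN libraries, so that only NAVI replicate 2 reached the VehN range. Rtp4, a chaperone of receptors and an interferon-induced antiviral gene, had 3.14, 4.05, 2.69 and 3.51 CPM in NAVI libraries, all below the VehN values of 5.39, 4.95, 5.45 and 6.47 CPM. Mx2, an interferon-induced dynamin-like GTPase, had 0.843, 1.59, 0.856 and 1.26 CPM in NAVI libraries and 1.9, 2.04, 2.16 and 3.0 CPM in VehN libraries, again without overlap. Samd9l, an antiviral translation inhibitor, differed by -0.67 ± 0.20 and Oas2, a synthetase of the messenger that activates RNase L, by -0.78 ± 0.29. With the trend removed Rtp4 stood at -0.67, Mx2 at -0.99, Samd9l at -0.45 and Oas2 at -0.77, and 8 of the 38 lay lower and none higher. Single libraries moved the count. Of the 38, 4 lay lower and 1 higher without VehN replicate 4, where 10.6% of all genes lay lower. The count in that fit was thus near the share of all genes. It was 5 lower without NAVI replicate 3 (5.86% of all genes) and 6 lower without NAVI replicate 1 (12.1% of all genes). The count without NAVI replicate 1 was also near that share. The medians lay between -0.52 and -0.30 over the 8 libraries left out in turn. Leaving out the 2 NAVI libraries low in choroid plexus gave 16 lower and none higher, where 9.51% of all genes lay lower. Leaving out the 3 libraries of steepest GC slope gave 1 lower and none higher with the median at -0.38, where 0.871% of all genes lay lower. Set against VehD, 11 lay lower and none higher (median -0.39). None of the 38 passed the test of the difference from WT.

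Microglial genes lay higher, mostly in 1 library. Of 37 genes of disease-associated microglia, the state that surrounds amyloid plaques, 11 lay higher and 1, Igf1, lower (median 0.23), and of 20 homeostatic microglial genes 6 and none (median 0.17). Trem2, the receptor that microglia need to enter that state, had 10.1, 13.8, 28.1 and 17.2 CPM in NAVI libraries and 16.3, 10.3, 8.32 and 12.4 CPM in VehN libraries, and Cd68, a lysosomal protein of phagocytes, 12.8, 13.9, 24.5 and 14.7 CPM in NAVI libraries and 14.3, 10.2, 7.78 and 10.2 CPM in VehN libraries. NAVI replicate 3 was the highest of the 8 libraries in both, while NAVI replicates 1 and 2 lay inside the VehN range and NAVI replicate 4 just above it. The log2 fold changes were 0.55 ± 0.22 for Trem2 and 0.63 ± 0.18 for Cd68. Without NAVI replicates 3 and 4 and VehN replicate 3 the log2 fold change of Trem2 was -0.11, and 0 of the 37 genes lay higher or lower (median 0.02), as against 1.33% and 0.871% of all genes. Leaving out NAVI replicate 3 left 2 of the 37 higher, and leaving out VehN replicate 2, 3 or 4 left 4, 3 or 6 of them. Of the 20 homeostatic genes 1 lay higher when NAVI replicate 3 or VehN replicate 3 was left out, and 2 when VehN replicate 2 or 4 was. Of all genes, 11.7% lay higher without NAVI replicate 3, and 12%, 10.6% and 16.3% without VehN replicate 2, 3 and 4. In these fits neither microglial list exceeded the share of all genes. Against VehD 5 of the 37 lay higher and 1 lower (median 0.21), and 1 of the 20 higher (median 0.07). Sall1, a transcription factor of microglial identity, had 27.4, 27.4, 27.6 and 26.3 CPM in NAVI libraries, all above the VehN values of 24, 20.6, 20.5 and 20.6 CPM (log2 0.34 ± 0.07, 0.32 with the trend removed). C1qa, the first component of the complement cascade, differed by 0.45 ± 0.19 (0.15 with the trend removed), Lag3 by 0.59 ± 0.18 (0.27) and Igf1, a growth factor, by -0.33 ± 0.11 (-0.10). Gfap, the intermediate filament of reactive astrocytes, had 984, 1142, 1779 and 941 CPM in NAVI libraries and 1296, 823, 615 and 816 CPM in VehN libraries, with overlap (log2 0.45 ± 0.18). Without the 3 libraries of steepest slope the log2 fold change was 0.13 for Gfap and 0.04 for C1qa. Of 28 reactive astrocyte genes 3 lay higher and 1 lower, and 0 and 0 with the trend removed. Of 18 complement genes tested 4 lay higher and 2 lower (median 0.01), and 0 and 1 with the trend removed.

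The TAM receptors, to which Tyro3 belongs, and their ligands clear dying cells. Of 8 genes tested in a list of these that also holds Mfge8, which is not a TAM ligand, 3 lay higher (Tyro3, Mfge8 and Axl). None lay lower, and with the GC trend removed 1, Tyro3, lay higher and 0 lower. Tyro3 was named as a marker beforehand, so its place in these counts is no independent evidence. Axl, the receptor that microglia raise at plaques, had 67.7, 70.9, 80.8 and 73 CPM in NAVI libraries and 73.8, 64, 59.4 and 66 CPM in VehN libraries, and Mertk, the main receptor of resting microglia and astrocytes, 41, 63.6, 44.9 and 52.6 CPM in NAVI libraries and 50.3, 70.2, 60.2 and 55.9 CPM in VehN libraries. Both overlapped, and their log2 fold changes had opposite signs (0.15 ± 0.06 for Axl and -0.23 ± 0.11 for Mertk). Mfge8, a bridging protein that binds phosphatidylserine, differed by 0.43 ± 0.15 (0.22 with the trend removed). Among 19 tested actin-bundling genes, the class of Fscn1, 7 lay higher and 2 lower (Fmnl2 and Daam1), which became 2 and 0 with the trend removed and 4 and 2 without NAVI replicate 4. Baiap2, the adaptor IRSp53 of dendritic spines, had 127, 139, 168 and 203 CPM in NAVI libraries and 118, 104, 103 and 136 CPM in VehN libraries (log2 0.47, 0.20 with the trend removed), and Dbn1, which encodes drebrin, differed by 0.34 (0.05).

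Oligodendrocyte precursor and cholesterol synthesis genes also lay higher. Of 12 precursor genes 7 lay higher and none lower, and 4 and none with the GC trend removed. Cspg4, the proteoglycan NG2, had 13.1, 12.3, 18 and 17.6 CPM in NAVI libraries and 12.3, 9.87, 7.56 and 9.78 CPM in VehN libraries, and Sox10, the lineage transcription factor, 36.4, 27.5, 38.2 and 37 CPM in NAVI libraries and 35.8, 19.4, 14.4 and 18 CPM in VehN libraries. VehN replicate 1 was the VehN library inside the NAVI range for Sox10. Their log2 fold changes were 0.63 (Cspg4) and 0.67 (Sox10), and 0.32 and 0.34 with the trend removed. Of 24 genes of cholesterol synthesis 9 lay higher and none lower, and 10 and none with the trend removed. Srebf2, the transcription factor that drives the pathway, had 156, 151, 196 and 204 CPM in NAVI libraries, all above the VehN values of 147, 124, 110.2 and 138 CPM (log2 0.44 ± 0.11, 0.17 with the trend removed). Mvk, mevalonate kinase, differed by 0.61 ± 0.16 (0.40 with the trend removed). The precursor count was 3 without NAVI replicate 4 or VehN replicate 3 and 4 without VehN replicate 2 or 4, and 3 with VehD as the vehicle. Without the 3 libraries of steepest slope 0 of the 12 and 0 of the 24 lay higher or lower, in a fit where 1.33% of all genes lay higher, and the medians were 0.12 for the precursor list, against 0.26 with all libraries, and 0.15 for the cholesterol list, against 0.10.

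Stress lists were mixed. Of 21 heat shock chaperones 7 lay lower and 2 higher (Dnajb5 and Hsf1), 1 and 1 with the GC trend removed, and 1 and 0 without VehN replicate 3. Against VehD 10 lay lower and none higher. Hsp90b1, the chaperone GRP94 of the endoplasmic reticulum, had 447, 507, 422 and 416 CPM in NAVI libraries and 461, 599, 632 and 506 CPM in VehN libraries, and Chordc1, a co-chaperone of HSP90, differed by -0.37 ± 0.12 (-0.11 with the trend removed). Of 22 glucocorticoid-responsive genes 5 lay lower and 2 higher (Galnt9 and Per1), with a median of -0.21. With VehD as the vehicle 5 lay higher and none lower, with a median of 0.27, so the direction of this list depended on the vehicle group, and the count of lower genes was 2 without NAVI replicate 3 and 3 without NAVI replicate 1 or VehN replicate 2. Tsc22d3, the glucocorticoid-induced leucine zipper, had 79.8, 95.2, 70.1 and 89.2 CPM in NAVI libraries, all below the VehN values of 98.1, 132, 99.3 and 102 CPM (log2 -0.37 ± 0.12), and Sult1a1, a phenol sulfotransferase, differed by -0.74 ± 0.23. Of 24 genes of the integrated stress response 7 lay higher and 2 lower (median 0.05), and 1 and 1 with the trend removed (median -0.02). Without the 3 libraries of steepest slope 0 of these lay higher or lower. Ddit3, the transcription factor CHOP of that response, had 15.7, 15.8, 18.9 and 18.9 CPM in NAVI libraries and 15.4, 13.4, 13 and 14.8 CPM in VehN libraries, without overlap (log2 0.29, 0.43 with the trend removed). With VehD as the vehicle the log2 fold change of Ddit3 was 0.06. None of the 6 platelet genes tested lay higher or lower. The summed level of all 11 listed platelet genes, with those below the count filter, was 12.8, 11.1, 12.3 and 10.2 CPM in NAVI libraries. It was 11.6, 10.2, 7.59 and 10.1 CPM in VehN libraries. The globin genes Hba-a1 and Hbb-bs fell below the count filter.

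The transgene-bearing genotype was visible in the App row in every library: App counts in 3xTg NAVI libraries were 3234, 3486, 3565 and 3805 CPM and in 3xTg VehN libraries 2903, 2410.2, 2966 and 3459 CPM, against 1469.5 to 1799.5 CPM over the 8 WT NAVI and WT Veh libraries. Reads from the human transgene and from mouse App cannot be told apart in this row. App differed by 0.26 ± 0.09 between NAVI and VehN (edgeR adjusted p = 0.0717) and by 0.39 with the trend removed, and the groups overlapped. Mapt differed by 0.13 ± 0.06, with 663, 698, 711 and 755 CPM in NAVI libraries and 645, 615, 652 and 671 CPM in VehN libraries.

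The test of whether the NAVI effect differed between genotypes called 1331 genes in edgeR, of which 964 had the more positive effect in 3xTg (5.89%) and 367 the more negative (2.24%). In WT alone, NAVI against Veh called 0 genes in edgeR (1267 at an unadjusted p under 0.05). The 5 genes with the smallest p of the difference were Pianp, Chac1, Wee1, Crip2 and Mark2. Chac1, a glutathione-degrading enzyme of the integrated stress response, had 4.65, 3.64, 6.18 and 7.04 CPM in 3xTg NAVI and 3.53, 3.81, 3.6 and 3.32 CPM in 3xTg VehN libraries, and in WT 3.3, 2.64, 2.42 and 2.67 CPM in NAVI and 5.66, 4.66, 3.19 and 8.02 CPM in Veh libraries. Wee1, the kinase that holds CDK1 inactive, had 22.3, 24.6, 23.4 and 23.2 CPM in 3xTg NAVI and 24.8, 29.2, 31.1 and 31.1 CPM in 3xTg VehN libraries, and in WT 32, 30.9, 31.5 and 33.4 CPM in NAVI and 25.1, 26.2, 27.7 and 26.1 CPM in Veh libraries. Both thus lay on opposite sides in the 2 genotypes, Chac1 at 0.59 in 3xTg and -0.96 in WT, and Wee1 at -0.31 in 3xTg and 0.28 in WT. Crip2, a LIM domain protein, differed between genotypes by 1.04, Pianp by 0.59 and Mark2, a tau-phosphorylating kinase, by 0.51 (edgeR adjusted p = 0.0427 each). With the GC trend removed from each library no gene passed this test (smallest adjusted p 0.0703). Single libraries of both genotypes decided the count as well: it was 0 without NAVI replicate 3 or 4 or VehN replicate 2 or 3 of 3xTg, and without NAVI replicate 2 or 4 or Veh replicate 1 of WT. It was 1 without NAVI replicate 3 or Veh replicate 4 of WT, and 3615, 4214 and 2799 without 3xTg NAVI replicate 2, 3xTg VehN replicate 1 and WT Veh replicate 2.

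**Figure D5:**
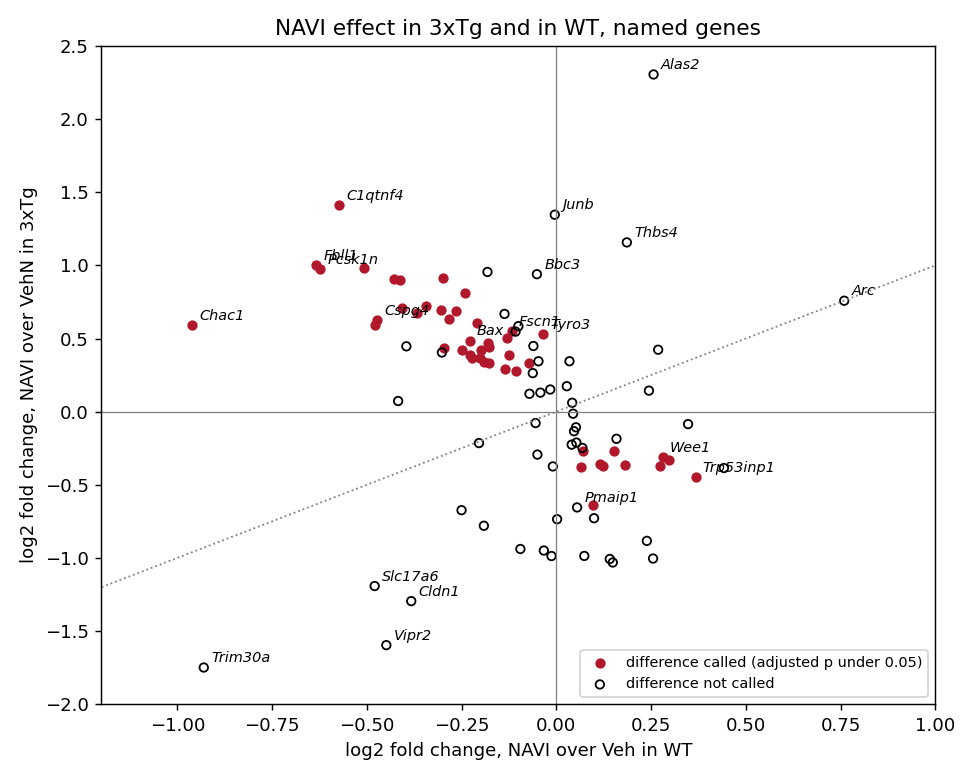
Log2 fold change of NAVI over VehN in 3xTg (vertical) against NAVI over Veh in WT (horizontal) for the genes named in the text, with the dotted line where both are equal; filled points passed the test of the difference before GC correction. The filled points lie off that line, to its upper left, such as C1qtnf4 at 1.41 and -0.57, or to its lower right, such as Trp53inp1 at -0.45 and 0.37.

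Depth overlapped between the groups: the libraries held 38249018, 46348608, 32080861 and 42749364 assigned counts in NAVI and 42259111, 43400865, 52320840 and 41786284 in VehN. Hippocampal excitatory neuron genes were abundant in all 8 libraries (summed level 6169 to 9133 CPM over 18 genes). Nothing in the labels says that replicates are separate mice rather than other units, so p-values measure the spread between these samples.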

How the data were processed

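RNA of hippocampi from female mice was sequenced from Illumina stranded mRNA libraries, per the labels' protocols. The authors deposited whole-number counts per gene for all 28 libraries in 1 table. The submitters' processing notes name STAR, Subread, featureCounts and mm10 without roles or versions. The counting strand and the annotation were not given in the sources used here. Antisense and overlapping genes are therefore uncertain.

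From the deposited counts, edgeR 4.0.16 (R 4.3.3) was fitted to all 7 groups of 4 libraries together, with TMM normalization, its default low count filter and a quasi-likelihood test, and p-values were adjusted by Benjamini-Hochberg over the 16369 genes tested. The threshold was 0.05. The 3xTg comparison and its difference from WT were contrasts of this fit. CPM values use TMM library sizes, and the log2 values in scores a prior count of 2. Alternatives used DESeq2 1.42.0, limma 3.58.1 and sva 3.50.0. DESeq2 gave no adjusted p for 3810 genes. GC content came from the longest GENCODE transcript on GRCm38, which matched 15590 of 16369 genes (95.2%), and its trend was removed by an offset from a lowess curve (span 0.3) per library. Tested on simulated data, the fit recovered 60% of 50 genes changed 1.5-fold between NAVI and VehN in 3xTg and 30% for the difference between genotypes. The simulated counts varied independently from gene to gene, without a GC trend or tissue differences between libraries. These rates therefore do not measure what the fit can detect in the real libraries.

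Genes were named by rule: the 4 markers, the BCL-2 family, the 10 highest and lowest fold changes at an unadjusted p under 0.05 and mean log2 CPM 1 or more, the 6 smallest p per direction, up to 4 members per list, the 5 smallest p of the difference, and Cdkn1a, Cdkn2a, App, Mapt, Gfap and Trem2. Other members named beside small counts were chosen after their values were seen. The members and gene lists were chosen with earlier results of these data known. Some genes are not reported here. No library pair differed by less than sampling noise.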

Additional observations from a re-analysis of the deposited data

Results flagged for a closer look

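Of 200 groups of 4 libraries looked at (the 100 named genes in NAVI and in VehN libraries of 3xTg mice), 12 had a library far from the other 3, and chance flags about 1 group in 20. NAVI replicate 1 stood apart with 77.8 CPM of Slc17a6 and 6.49 CPM of Vipr2, both on the high side. NAVI replicate 2 stood apart with 10.8 CPM of Alas2, an enzyme of heme synthesis in erythroid cells, 16 CPM of Sult1a1 and, on the low side, 27.5 CPM of Sox10. NAVI replicate 3 stood apart with 24.5 CPM of Cd68 and 0.398 CPM of Bcl2a1d, and NAVI replicate 4 with 26.3 CPM of Sall1. In VehN, replicate 1 stood apart with 24 CPM of Sall1 and 0.895 CPM of Bcl2a1d, replicate 2 with 132 CPM of Tsc22d3 and replicate 3 with 5.99 CPM of E2f1. These values are given without an explanation, and the cause of each was not tested.

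The effect of NAVI differed between 3xTg and WT in edgeR's test of the difference for 1331 genes (5.89% of all genes more positive in 3xTg and 2.24% more negative). It did so for 47 of the 100 named genes, of which 36 had the more positive effect in 3xTg. Many of the named genes were picked by p-value or fold change in these data, so their larger share follows from the choice. The difference on the log2 scale (3xTg minus WT) was 1.98 for C1qtnf4, 1.63 for Fbll1, 1.6 for Pcsk1n, 1.55 for Chac1, 1.49 for H1fx, 1.33 for Gtpbp6, 1.31 for Ttc9b, 1.21 for Rprml, 1.12 for Rplp1, 1.1 for Cspg4, 1.07 for Lag3, 1.06 for Kcnj4, 1.05 for Stx1a, 1.04 for Crip2 and 1.0 for Emx1. It was 0.95 for Rasal1, 0.91 for Cd68, 0.81 for Mvk, 0.73 for Mfge8, 0.71 for Bax, 0.67 for Uqcrq, 0.67 for Fscn1, 0.65 for Baiap2, 0.63 for Xylt1, 0.62 for Srebf2, 0.62 for Dlg4 and 0.61 for Htra2. It was 0.59 for Pianp, 0.57 for Rpl37, 0.56 for Tyro3, 0.53 for Dbn1, 0.51 for Prmt2, 0.51 for Mark2, 0.43 for Ddit3, 0.41 for Cdkn2d and 0.38 for Unc13a. On the negative side it was -0.82 for Trp53inp1, -0.73 for Six4, -0.64 for Tsc22d3, -0.63 for Igf1, -0.59 for Wee1, -0.55 for Wwp1, -0.49 for Akap17b, -0.47 for Etfa, -0.44 for Ahcyl2, -0.42 for Uqcrh and -0.34 for Parva. None of these passed the same test once the GC trend was removed from each library.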

How the results depend on the processing

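Against 0 genes called between NAVI and VehN in 3xTg, DESeq2 called 2000, limma-voom with quality weights 826, a fit with 1 surrogate variable 2829, the mean of VehN and VehD as the vehicle 1541 and the fit with the GC trend removed 1. Leaving out 1 library gave 0 to 3578. The groups share replicate numbers, and the labels do not say what a number marks. The deviations of same-numbered samples correlated at 0.156, 0.122, -0.17 and 0.308, so 3 of 4 pairs and not all exceeded 0.1, the limit set for a pairing, and 2 of 8 libraries correlated best with their own number. The replicate block gave 2317 calls, or 191 with the GC trend removed. Of 23 alternatives 11 made calls. Size factors of DESeq2 in edgeR, no filter, a mean of at least 50 counts, the 8 libraries alone, choroid plexus and thalamus scores as covariates and VehD as the vehicle gave 0. So did leaving out, as chosen after seeing the data, the 2 NAVI libraries low in choroid plexus or the 3 libraries with the steepest GC slopes. The difference between genotypes, 1331 genes, became 3004 (DESeq2), 2007 (limma-voom), 3632 (surrogate variable), 3267 (tissue scores), 3315 (replicate block), 447 (replicate block and GC trend removed) and 0 without a filter, within its own libraries, with the GC trend removed and in both fits chosen after seeing the data, and 0 to 4214 without 1 library. The cause of these changes was not tested. The difference in GC slope was 0.274 over genes with a mean of at least 50 counts and 0.192 to 0.342 without 1 library. That of Cdkn2a was 0.75 in raw counts (exact permutation p = 0.83) and 0.00146 to 0.0507 CPM without 1 library. Of the 100 named genes, 84 kept the sign of their log2 fold change in every alternative, and these 16 did not, in 41 values. Bcl2l1 was -0.0588 and -0.0565 with the GC trend removed, without and with the block, and -0.0513 without the steepest libraries. Bcl2l2 was -0.0147 and -0.0149, Bak1 -0.043 and -0.0424 and Bok -0.258 and -0.254 with the trend removed, without and with the block, and Bok -0.17 without the steepest libraries. Bcl2a1a was 0.0658 (GC), 0.105 (GC and block), 0.0531 (surrogate variable), 0.0874 (tissue scores), 0.24 (low choroid plexus left out) and 0.12 (steepest left out), and Bmf 0.012, 0.0193 and 0.15 (surrogate variable, tissue scores, low choroid plexus left out). Bcl2a1d was 0.19 in limma-voom. With VehD as the vehicle Bcl2a1b was -0.0426, Bcl2l11 0.0267, Bmf 0.0135, Tspan11 0.15, Cdkn1a 0.17 and Tsc22d3 0.0943. Alas2 was -0.42 without the NAVI libraries low in choroid plexus, and Trem2 -0.11 without the steepest. Leaving out 1 library gave ranges of -0.27 to 0.14 (Bcl2a1a), -0.0171 to 0.32 (Bcl2a1b), -0.62 to 0.47 (Bcl2a1d), -0.0669 to 0.0318 (Bid), -0.16 to 0.0381 (Hrk), -0.0608 to 0.31 (Bok), -0.34 to 0.0425 (Cdkn1a) and -0.38 to 2.94 (Alas2). Depth limits Cdkn2a, at 0 to 5 counts a library.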
